A study of Drosophila melanogaster with 4 samples.

Results

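The Antennapedia complex of Drosophila melanogaster is the group of homeotic (Hox) genes on chromosome arm 3R that holds lab, pb, Dfd, Scr and Antp. Enrichment of Sfmbt over it was described from every enriched cluster that overlaps 3R 2470000 to 2840000 in FlyBase release 5, the interval of these 5 genes, which spans 370001 bp. The interval held 17 of the 6560 clusters of ChIP replicate 1, 15 of the 6508 of ChIP replicate 2 and 19 of the 8434 of the combined list made from both. Sfmbt, labelled dSFMBT, was precipitated with the antibody Q2642 from cross-linked chromatin of adult heads, given as head nuclei in the sample titles. The flies were of the wild-type Oregon-R strain (Oregon-R-modENCODE). Adults of mixed age were raised in population cages, and heads were collected with sieves. There were 2 ChIP samples and 2 input chromatin samples, 1 input per ChIP, all of this 1 strain, genotype and tissue. The inputs enter only through the calling of the clusters, and as no label tells whether each ChIP sample had its own batch of flies, the replicate spread given below may be only technical.

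Sfmbt is a Polycomb group protein with MBT repeats that bind methylated histone tails, and together with the DNA-binding protein Pho it forms the Pho repressive complex. Polycomb group proteins keep Hox genes silent in cells where they should be off, and they bind at Polycomb response elements that can lie far from a promoter. In the embryo the genes lab, Dfd and Scr give head and first thoracic segments their identity, and Antp acts in the thorax. A head holds many cell types, so a site bound weakly in all cells and a site bound strongly in few cells cannot be told apart in these data.

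The genes between lab and Antp were read from a RefSeq gene table, which describes release 6 and was therefore used for order and names and not for positions. It lists 45 genes from lab to Antp, of which 20 are protein-coding. Most of the others are long non-coding RNA genes. From the lab end the named genes of interest follow each other as lab, then Edg84A and the Ccp84A cuticle protein genes, pb, zen2, zen, bcd, Ama, mir-993, Dfd, mir-10, a group of lysine tRNA and 7SL RNA genes, Scr, ftz and Antp. The genes zen2, zen, bcd and ftz encode homeodomain proteins that act in the early embryo, with bcd setting up the anterior axis and ftz the pair-rule pattern. One gene of the group could be placed on the clusters. The 7SL RNA gene 7SLRNA:CR42652, whose RNA is part of the signal recognition particle, carries a synonym that is itself a position, 3R 2645852 to 2646154. That position falls inside a cluster of all 3 lists. The synonym names no build, but it is not the table's own release 6 position. It was taken here as release 5, like the clusters, which was not checked. Clusters before it are called here the lab side and those after it the Antp side. If the position is release 5, lab, pb and Dfd lie on the lab side and Scr, ftz and Antp on the Antp side. No other cluster is assigned to a gene.

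Sfmbt was enriched at 19 separate places in the interval, numbered here from the lab end. Most were narrow. Widths ran from 1900 to 5255 bp in replicate 1, with a median of 2087 bp, and from 1361 to 5257 bp in replicate 2, with a median of 2000 bp. The median over all 3R clusters was 2221 bp in replicate 1 and 2178 bp in replicate 2. A single cluster, cluster 11, was wider than 5 kb in each list, where 4.83% of 3R clusters were this wide in replicate 1, 3.84% in replicate 2 and 6.05% among the combined clusters. Each cluster has 1 score, the authors' own value on a log2 scale, and a higher score is a stronger enrichment. Scores ran from 0.40 to 1.49 in replicate 1 and from 0.37 to 1.36 in replicate 2. The scores of the combined list, from 0.18 to 1.45, are given beside those of the replicates without comparing their size. There is 1 scaling constant per list, so part of any difference or SD between replicates may be an offset between lists, and ranks and medians over 3R within each list are given beside the scores for that reason.

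**Figure D1:**
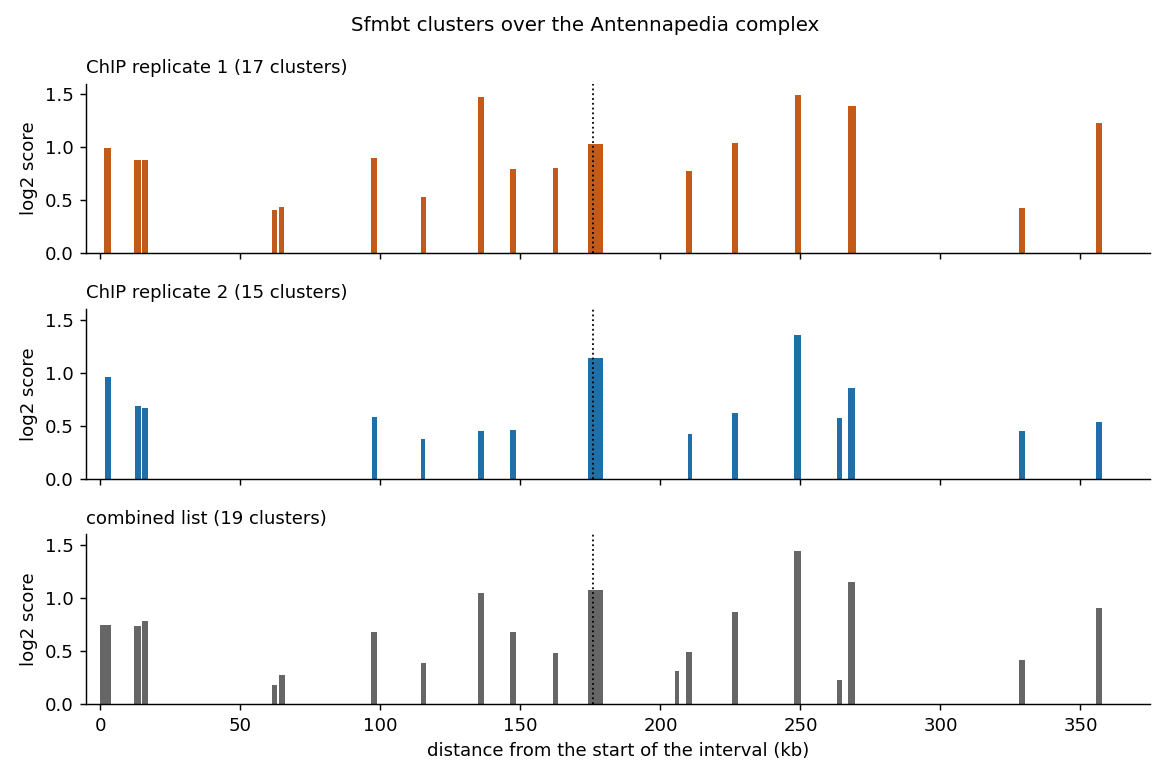
Clusters of replicate 1, replicate 2 and the combined list along the interval, with distance from its start in kb on the x axis, log2 score on the y axis and bar width equal to cluster width. The dotted line marks the position in the synonym of 7SLRNA:CR42652, which falls in the widest cluster. Replicate 1 has 17 clusters, replicate 2 has 15 and the combined list 19.

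The lab side, 175.852 kb long, held clusters 1 to 10. Replicate 1 had all 10 of them, covering 11.99% of the sequence, and replicate 2 had 7, covering 7.78%. At the lab end lay cluster 1, at 2471474 to 2473694 in replicate 1, with a score of 0.99 there and 0.96 in replicate 2. In the combined list it began at 2469944, just before the interval, and scored 0.74. The replicates placed it alike, with starts 31 bp apart and the same end.

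Clusters 2 and 3 formed a close pair. The first, at 2482144 to 2484514, had scores of 0.88 in replicate 1 and 0.69 in replicate 2. The second, at 2484827 to 2486913, had 0.88 and 0.67. Both were near the median of 3R in each replicate, which was 0.77 in replicate 1 and 0.72 in replicate 2. A second close pair, cluster 4 at 2531283 to 2533253 and cluster 5 at 2533828 to 2535727, was called in replicate 1 and in the combined list but not in replicate 2. Its scores in replicate 1 were 0.40 and 0.44, which put them among the weakest clusters of the arm, at ranks 1370 and 1335 of 1471.

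Toward the middle of the lab side the clusters stood singly. Cluster 6, at 2566650 to 2568914, had a score of 0.90 in replicate 1 and of 0.59 in replicate 2. Cluster 7, at 2584421 to 2586398, scored 0.53 and 0.37, and the second was the lowest score of the interval in replicate 2. Cluster 9, at 2616315 to 2618387, scored 0.80 and 0.46. All 3 were lower in replicate 2.

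The cluster on which the replicates differed most was cluster 8, at 2604880 to 2607038. It scored 1.47 in replicate 1, rank 105 of 1471 on 3R, and 0.45 in replicate 2, rank 1268 of 1431. It was thus among the stronger clusters of the arm in the first list and among the weaker ones in the second. The mean was 0.96 with an SD of 0.73 (n = 2), and the combined list gave 1.05. The difference of 1.03 was the sixth widest in favour of replicate 1 among the 1238 3R clusters that had exactly 1 partner in each direction. The 2 calls covered nearly the same bases, with 1985 bp shared. Cluster 10, at 2631520 to 2633574, was called in replicate 1 with a score of 0.80 and was missing from replicate 2. That score is high for a cluster without a partner, since of the 176 such clusters of replicate 1 on 3R only 8 reached it.

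Cluster 11, at 2644214 to 2649468 in replicate 1 and 2644192 to 2649448 in replicate 2, was the widest of the interval and contained the position in the synonym of 7SLRNA:CR42652. In the gene table this gene lies among tRNA:Lys-TTT-2-1 to tRNA:Lys-TTT-2-4 and a second 7SL gene, 7SLRNA:CR32864, between mir-10 and Scr. Transfer RNA and 7SL RNA genes are short, present in several copies and strongly transcribed by RNA polymerase III. The cluster scored 1.03 in replicate 1 and 1.14 in replicate 2, a mean of 1.09 with an SD of 0.07 (n = 2). It was 1 of 2 shared clusters of the interval at which replicate 2 scored higher. Its edges differed by 22 and 20 bp between the replicates. How reads from repeated sequence were counted is given by neither labels nor headers, and its part in this cluster was not tested.

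The Antp side, 193.846 kb long, held clusters 12 to 19. Replicate 1 had 6 of them, covering 6.79% of the sequence, and replicate 2 had 7, covering 7.21%. Cluster 15, at 2717881 to 2720122, was the strongest of the interval in every list. It scored 1.49 in replicate 1, rank 102 of 1471 on 3R, and 1.36 in replicate 2, rank 86 of 1431. The combined score was 1.45, rank 68 of 1803. It was the only cluster of the interval that lay in the top 10% of 3R scores in all 3 lists.

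Cluster 17, at 2737022 to 2739664, was the next strongest of this side. It scored 1.39 in replicate 1 and 0.86 in replicate 2, a mean of 1.12 with an SD of 0.37 (n = 2). Cluster 16, at 2733026 to 2735010, lay close before it and was called in replicate 2 alone, with a score of 0.57, and in the combined list with 0.23. Cluster 14, at 2695726 to 2697779, scored 1.04 and 0.62, and the replicates placed its start at the same base.

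The remaining clusters of the Antp side were weaker or uneven. Cluster 13, at 2679175 to 2681203, had a score of 0.78 in replicate 1 and of 0.42 in replicate 2, where it was 1361 bp wide, the narrowest of the interval. Cluster 12, at 2675117 to 2676488, was in the combined list alone, with a score of 0.32 and a width of 1372 bp. Cluster 18, at 2798162 to 2800100, was weak in both replicates, with 0.43 and 0.45. The last, cluster 19 at 2825537 to 2827792 near the Antp end, scored 1.22 in replicate 1 and 0.53 in replicate 2 and so showed the second widest gap of the interval.

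**Figure D2:**
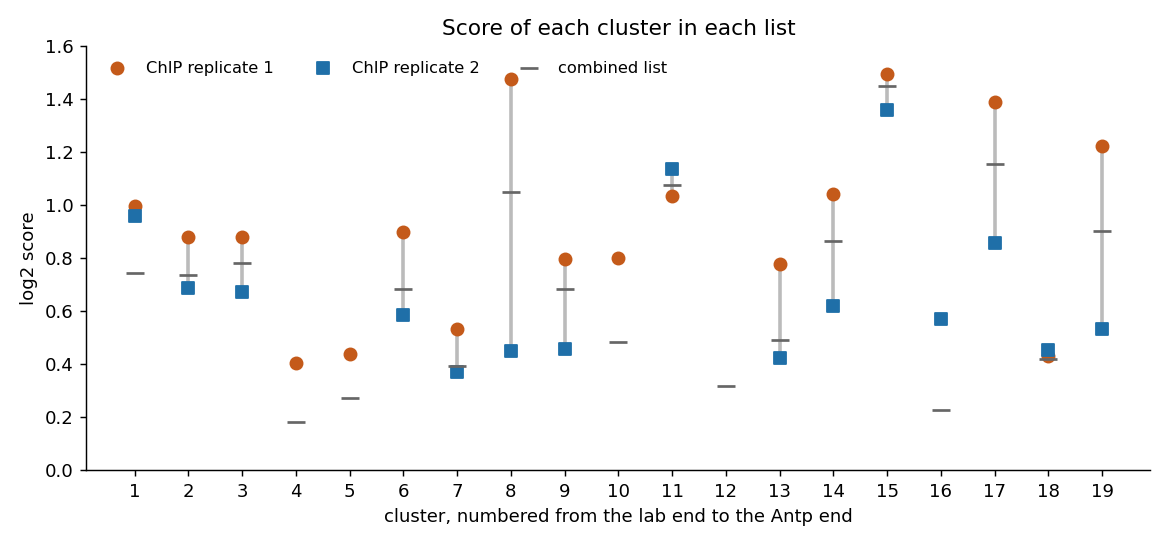
Log2 score (y axis) of each of the 19 clusters, numbered from the lab end to the Antp end (x axis), in replicate 1 (circles), replicate 2 (squares) and the combined list (dashes), with a grey line joining the replicates where both have the cluster. Replicate 1 is higher at 12 of the 14 shared clusters, with the widest gap at cluster 8, and clusters 11 and 18 are the exceptions.

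Long stretches of the complex had no cluster in any list. The longest on the Antp side lay between clusters 17 and 18. It was 58.5 kb long in replicate 1, at 2739665 to 2798161, and 58.7 kb in replicate 2. It held rank 88 among the 1472 stretches between clusters on 3R in replicate 1 and rank 96 of 1432 in replicate 2, where the median stretches were 7364.5 and 7063.5 bp. On the lab side the stretch after cluster 3 was 44.4 kb in replicate 1 and, because clusters 4 and 5 were not called, 79.9 kb in replicate 2. The nearest cluster before the interval ended 49747 bp away in replicate 1 and 49906 bp away in replicate 2, and the nearest after it began 22021 and 22063 bp away. The stretch from cluster 19 to it, 34.2 kb in replicate 1, was shorter than the longest stretches inside the interval. The cluster after the interval, at 2862021 to 2864345, had a score of 1.72 in replicate 1 and of 0.78 in replicate 2, and so was also higher in replicate 1.

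Most clusters of the interval were found in both replicates, and about as often as elsewhere on the arm. Of the 17 clusters of replicate 1, 14 (82.4%, 95% exact Clopper-Pearson interval 56.6 to 96.2%) shared 1 bp or more with a cluster of replicate 2, where 88% of all 3R clusters of replicate 1 did. Of the 15 clusters of replicate 2, 14 (93.3%, interval 68.1 to 99.8%) had a partner, where 91.8% did on 3R. Of the 19 combined clusters, 14 (73.7%, interval 48.8 to 90.9%) overlapped both replicates, against 69.9% of 3R. These shares are near the background of the arm, and the intervals cover counting error only. The replicates placed shared clusters about as closely as over 3R. The shared bases were a median of 92.8% of the joint span of a pair in the interval and 92.8% over 3R, and starts differed by a median of 45.5 bp in the interval and 77.5 bp over 3R, and ends by 70 and 73 bp.

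Scores of the interval sat high within 3R in replicate 1 and low in replicate 2. In replicate 1, 13 of 17 clusters were at or above the 3R median, and in replicate 2 it was 4 of 15, where 50% of 3R clusters are by definition. The median score of the interval was 0.88 in replicate 1, above the 3R median of 0.77, and 0.59 in replicate 2, below the 3R median of 0.72. In the combined list it was 0.68, above its 3R median of 0.58, and 11 of 19 clusters were at or above that median. With means of 0.73 for the interval (SD 0.21, n = 2) and 0.74 for 3R (SD 0.04, n = 2), the replicates together give no difference that exceeds their spread. In the top 10% of 3R scores were clusters 8, 15 and 17 in replicate 1, which is 3 of 17 (17.6%), where 10.1% of the arm is. In replicate 2 and in the combined list only cluster 15 was, 1 of 15 (6.67%, background 10.1%) and 1 of 19 (5.26%, background 10%).

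The interval was then set against the 74 windows of its own length that could be laid end to end along 3R, itself among them. Such ranks describe the arm and are no test, since windows differ in gene content and in how well reads can be mapped. By number of clusters, covered share and highest score the interval was below the median window. It held a mean of 16 clusters over the replicates (SD 1.41, n = 2) and ranked 50 of 74 from the top, where the median window held 18.25. Clusters covered 9.79% of it (SD 1.26, n = 2), rank 55, where the median window was covered to 12.5% and the range was 1.95 to 24.97%. Its highest score averaged 1.43 (SD 0.10, n = 2) and ranked 57, where the median was 1.61. The mean of its median scores ranked 41. By that measure the window 1729998 to 2099998 ranked 1, with 1.22 (SD 0.24, n = 2), from 3 clusters in replicate 1 and 2 in replicate 2.

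**Figure D3:**
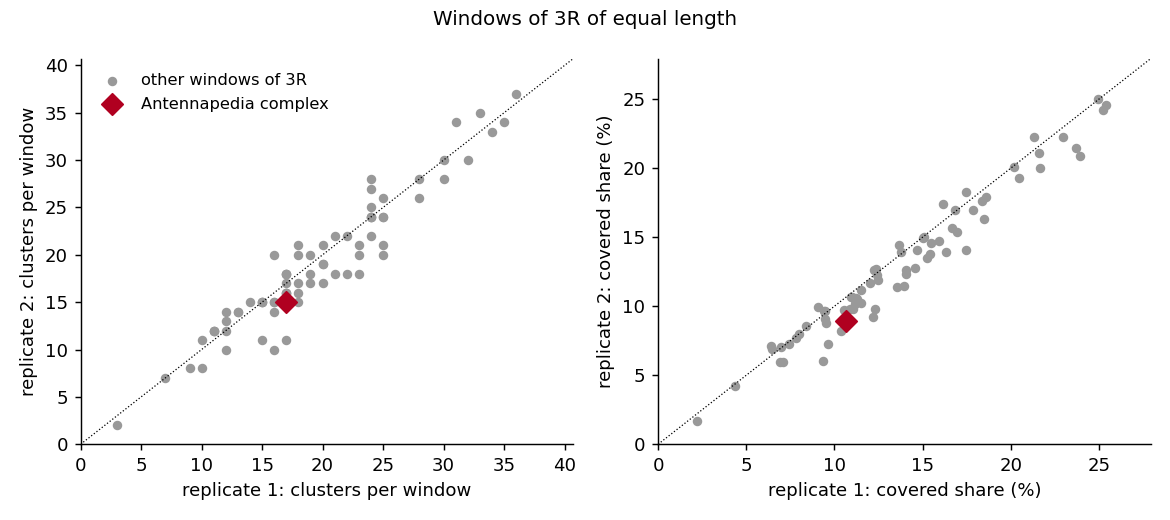
Number of clusters (left) and covered share in percent (right) of each of the 74 windows of 3R of equal length, with replicate 1 on the x axis, replicate 2 on the y axis and the dotted line at equal values. The interval of the Antennapedia complex (diamond) has 17 and 15 clusters and covered shares of 10.7% and 8.90%, within the crowd of windows and below its middle.

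Of the windows on either side, the one before the interval, 2099999 to 2469999, held a mean of 12 clusters (SD 0, n = 2) with a covered share of 7.76%. The one after it, 2840001 to 3210001, held 16.5 (SD 2.12, n = 2), which differs from the 16 of the interval by less than the spread, with a covered share of 13.3%. The densest window of the arm, 5060007 to 5430007, held 36.5 clusters and was covered to 24.97%. The window whose highest score was highest by the mean of the replicates, 12460027 to 12830027, held 24 clusters. That score averaged 2.59 (SD 0.01, n = 2), against 1.43 in the Antennapedia complex. Its median scores of 0.95 in replicate 1 and 0.95 in replicate 2 lay close together, unlike those of the Antennapedia complex.

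The median score of the interval depended on the replicate more than its number of clusters did. Among the 74 windows it ranked 10 from the top in replicate 1 and 66 in replicate 2, and among combined clusters it ranked 15. By number of clusters the ranks were 42 and 49, and by covered share 54 and 59.

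**Figure D4:**
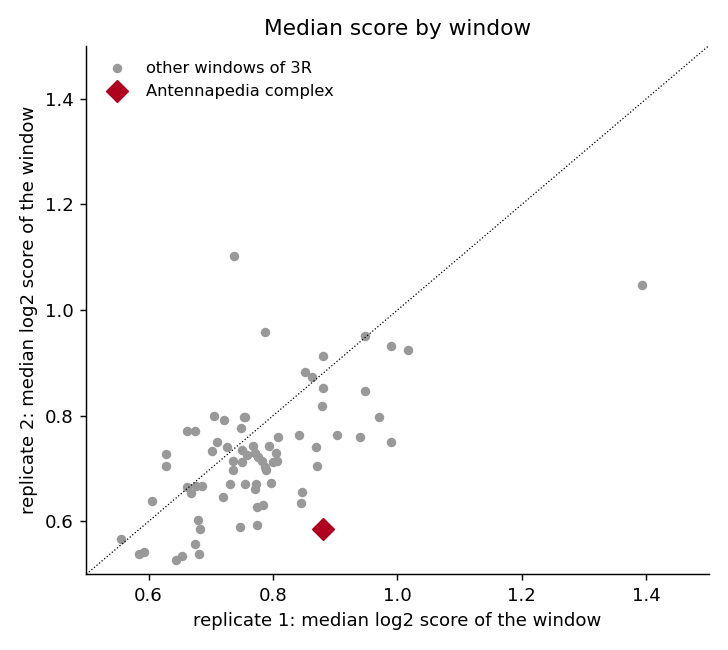
Median log2 score of the clusters in each of the 74 windows of 3R, with replicate 1 on the x axis, replicate 2 on the y axis and the dotted line at equal values. The interval (diamond) lies at 0.88 in replicate 1 and 0.59 in replicate 2, well below the line.

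At the shared clusters this difference was seen one by one, a comparison that was chosen after the scores had been seen. Replicate 1 was higher at 12 of the 14 shared clusters, where 62% of the 1238 paired clusters of 3R were higher in replicate 1. It was higher by more than 0.25 at 7 of the 14, namely clusters 6, 8, 9, 13, 14, 17 and 19, where 13.2% of the pairs of 3R were. The median difference was 0.26 in the interval and 0.05 over 3R, with quartiles of 0.14 and 0.40 in the interval and -0.05 and 0.16 over 3R. Among the 1049 pairs of 3R outside the interval whose score in replicate 1 was in the range of the 14, the median difference was 0.05. Of these pairs, 9.82% were higher in replicate 1 by more than 0.25. The range did not make score levels equal, as the median score in replicate 1 was 0.95 at the 14 and 0.80 at these pairs. The 7 clusters lay on both sides, with 3 on the lab side and 4 on the Antp side. The smallest differences, regardless of sign, were at cluster 1 at the lab end (0.03), cluster 11 (-0.10), cluster 15 (0.14) and cluster 18 (-0.02). Clusters 2, 3 and 7 lay between these and 0.25, at 0.19, 0.21 and 0.16. By percentile of the score within 3R, which an offset between lists does not change, clusters 1 and 15 stood slightly higher in replicate 2. Their differences, replicate 1 minus replicate 2, were -3.10 and -0.93 percentage points. Clusters 11 and 18 also stood higher in replicate 2, at -11.7 and -3.52. All other shared clusters stood higher in replicate 1.

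By the median difference the interval ranked 2 of 74 windows. The window above it, 1729998 to 2099998, held only 2 pairs, with a median of 0.53. The quartiles over windows were 0.02 and 0.08, and the windows next to the interval had medians of 0.02 and 0.02, with 11 and 14 pairs. The difference was therefore not shared by the sequence on either side as a whole. With 1 pair of replicates it could not be tested.

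**Figure D5:**
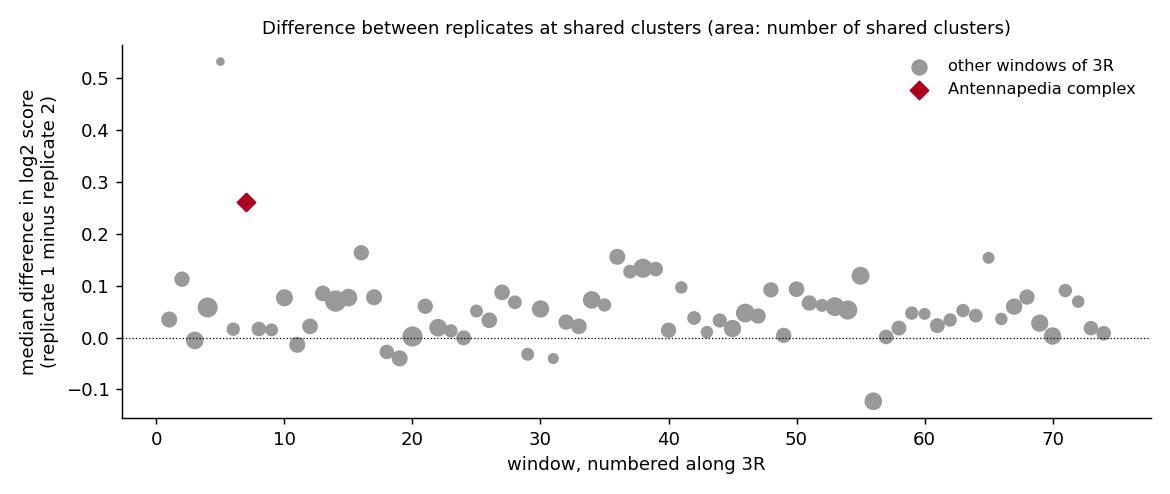
Median difference in log2 score between replicates (replicate 1 minus replicate 2, y axis) at the shared clusters of each window, by window number along 3R (x axis), with symbol area growing with the number of shared clusters. The interval (diamond) is at 0.26 with 14 pairs, and the only window above it, at 0.53, has 2 pairs.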

How the data were processed

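ChIP-seq libraries of 2 ChIP samples, each with its own input per the labels, gave 3 lists of enriched regions, 1 per ChIP sample and 1 for the replicate set. The deposited scores are log2 values, 1 per region. No header or label states this. It was settled from the values, since 2 to the power of the score, divided by 1 constant per list, was a ratio of whole numbers (each up to 3000, relative tolerance 1e-11) for 98.2 to 99.7% of clusters, and for at most 0.38% with base e or 10. Coordinates are FlyBase release 5, per the file headers. The submitters' processing notes name Bowtie 0.12.7. Not given in the sources used here are the peak caller, its threshold, read filters and how replicates were combined. Sequencing depth is unknown.

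Lists were used as deposited. Clusters overlapping the interval were matched between lists by at least 1 shared bp. Shares carry 95% exact binomial intervals. SDs are between the 2 replicates. Windows were laid end to end from the interval outward, and clusters overlapping a window counted in it. The design has 1 condition, so no test was run. Every cluster of the interval and the first windows by each measure were named. The interval, genes and measures were chosen with earlier results of these data known. Counting was tested on simulated data. Tools were pandas 2.3.3 and NumPy 2.4.6 under Python 3.11.15, SciPy 1.17.1 for intervals and matplotlib 3.10.9 for plots. Alternatives are described after the results.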

Additional observations from a re-analysis of the deposited data

How the results depend on the processing

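Sharing between replicates did not change when at least 50% of a cluster had to be covered, and counting clusters by midpoint changed none of the values for the interval. With only clusters at or above the median of their list, the mean number fell to 8, the covered share to 5.65% and the clusters found in both replicates and the combined list from 14 to 4, the median score was 1.03, the shares with a partner were 33.3% for replicate 1 and 100% for replicate 2, and the ranks by covered share and number were 49 and 37. Widening the interval by 50 kb on each side gave a covered share of 8.22%. The combined list gave a covered share of 12.02% and ranks of 60 by covered share and 43 by highest score. Windows laid from base 1 gave rank 45 by number, and joining clusters under 1 kb apart gave rank 43. Leaving out 1 replicate moved the ranks between 54 and 59 by covered share, 42 and 49 by number, 50 and 58 by highest score and 10 and 66 by median score. It moved the number between 15 and 17, the covered share between 8.90 and 10.7%, the median score between 0.59 and 0.88 and the clusters of the combined list matched by the remaining replicate between 15 and 17. The causes were not tested. The following settings were chosen after seeing the data. The median difference between replicates of 0.26 was 0.21 without cluster 8 and 0.21 with the 3R median subtracted, and on percentiles of the 3R scores it was 21.8 percentage points higher in replicate 1. No paired analysis was possible because the inputs have no list and no result comes from a test between groups. Depth is unknown, so a cluster missing from 1 list is not shown to be absent there.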
